A study of Homo sapiens with 32 samples.

Results

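The genes for DNA replication and for the supply of its nucleotides were followed by nascent RNA as HUH7 cells, from a human hepatoma line in long use, left mitosis. They were given as a list of 52 gene symbols and found by symbol in a table of RefSeq transcripts. All 52 were present among 24242 genes and passed a filter of at least 1 FPKM in at least 3 columns, as did 22940 genes in all. They fall into the 6 origin recognition genes, 9 licensing genes, 6 genes for helicase activation, 6 for the sliding clamp and its loader, 9 for the polymerases, 5 for strand maturation and single-strand binding, 4 nucleotide enzymes, the uracil glycosylase gene UNG, and 6 for chromatin assembly and the fork checkpoint.

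RNA made during a pulse of 0.5 mM 5-ethynyluridine (EU) lasting 40 minutes was captured and sequenced at 0, 40, 80, 105, 165 and 300 minutes after release from mitotic arrest. The arrested cells had been held in 2 mM thymidine for 24 hours, freed for 2 hours, treated with 0.06 µg/mL nocodazole for 16 hours, shaken off, washed and replated. All 6 release groups share this treatment, and the asynchronous cells are of the same line without it, as far as the labels say. The labels do not tie either end of the pulse to the times. Each of these 7 groups has 3 samples by its labels, but the table holds 1 column per group. No error can be put on any value, so no difference below has a replicate check or a test. The labels do not say whether the 3 samples came from separate cultures. Groups with no EU or with spike-in RNA were not analysed here, so no background stands beside these values.

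Values are FPKM, counts of fragments scaled by length and library size, as the authors deposited them. Of transcript pairs with the same ends and other exon lengths, 96.3% (4327 of 4493) had equal values, as a length over the whole gene span, introns included, would give. Low values came in steps, which gave relative depths between 1 at 0 minutes and 1.87 in asynchronous cells. The summed FPKM times gene length at 0 minutes was 0.602 of the asynchronous sum. If a step is 1 read, the members with a known span held between 57.1 and 33551 reads per column, and the largest counting error of a member had a median of 3.70% and reached 13.2%. These errors cover counting alone. The hepatoma markers AFP and ALB had 133 and 128 FPKM at 0 minutes, against 3964 and 2295 in asynchronous cells, and the 9 other hepatoma markers listed had 36.2 to 763 FPKM at 0 minutes, against 288 to 4016 in asynchronous cells. Of the blood markers, CD79A had 27.3 FPKM at 0 minutes, against 0.650 in asynchronous cells, while CD3E had 9.64 to 14.9 and PTPRC 1.85 to 4.49 FPKM over the 7 columns. Of the stroma markers, COL1A1 had 25.4 FPKM at 0 minutes, against 3.002 in asynchronous cells, and VWF 9.38 against 4.09, COL3A1 2.45 against 3.05 and PECAM1 17.1 against 35.9. The part of such RNA in the members' values was not tested. A pooled culture value cannot tell fewer transcribing cells from less RNA per cell.

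Replication begins with licensing. In late mitosis and G1 the origin recognition complex (ORC), CDC6 and CDT1 load the ring of MCM2 to MCM7 onto DNA. At the start of S phase CDC45 and GINS turn this ring into a running helicase, and polymerases then copy DNA with the PCNA clamp, which the RFC loader puts in place. Deoxynucleotides come from ribonucleotide reductase, thymidylate synthase and thymidine kinase. Transcription of many of these genes is known to be driven by E2F factors and held back by the retinoblastoma protein family before S phase.

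Promoters of 6 members are shown because they hold the E2F letters, the CCAAT letters or both, in genes with unlike time courses described below. The sequences are the 250 bases before the first start listed by RefSeq on GRCh38.p14. They are UNG at chr12:109097347-109097596 (plus strand), MCM6 at chr2:135876444-135876693 (minus strand), MCM7 at chr7:100101398-100101647 (minus strand), ORC1 at chr1:52404424-52404673 (minus strand), PCNA at chr20:5126623-5126872 (minus strand) and RRM2 at chr2:10122489-10122738 (plus strand). Each reads 5′ to 3′ on the strand of its gene, with matches that lie wholly before the start in capitals. In UNG and in MCM7, 2 further matches, 1 E2F and 1 CCAAT, reach past the start and are not marked.
UNG: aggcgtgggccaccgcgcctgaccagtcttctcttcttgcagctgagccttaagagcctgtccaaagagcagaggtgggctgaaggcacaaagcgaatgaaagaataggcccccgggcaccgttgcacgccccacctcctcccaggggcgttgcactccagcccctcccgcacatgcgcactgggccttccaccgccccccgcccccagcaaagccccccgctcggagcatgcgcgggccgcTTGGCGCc
MCM6: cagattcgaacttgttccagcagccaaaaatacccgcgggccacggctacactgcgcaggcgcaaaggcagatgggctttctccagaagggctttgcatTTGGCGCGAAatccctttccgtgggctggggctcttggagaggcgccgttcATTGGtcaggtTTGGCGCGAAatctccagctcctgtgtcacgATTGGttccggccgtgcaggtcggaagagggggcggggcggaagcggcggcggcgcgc
MCM7: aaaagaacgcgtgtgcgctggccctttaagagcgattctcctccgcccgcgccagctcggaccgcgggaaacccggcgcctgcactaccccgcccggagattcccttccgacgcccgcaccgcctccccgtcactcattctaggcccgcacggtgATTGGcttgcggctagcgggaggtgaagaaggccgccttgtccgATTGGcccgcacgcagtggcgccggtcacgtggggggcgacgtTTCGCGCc
ORC1: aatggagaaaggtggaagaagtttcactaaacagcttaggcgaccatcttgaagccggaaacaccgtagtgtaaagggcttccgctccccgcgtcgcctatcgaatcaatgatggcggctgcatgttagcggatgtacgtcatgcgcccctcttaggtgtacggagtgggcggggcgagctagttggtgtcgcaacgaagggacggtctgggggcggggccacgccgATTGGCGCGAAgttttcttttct
PCNA: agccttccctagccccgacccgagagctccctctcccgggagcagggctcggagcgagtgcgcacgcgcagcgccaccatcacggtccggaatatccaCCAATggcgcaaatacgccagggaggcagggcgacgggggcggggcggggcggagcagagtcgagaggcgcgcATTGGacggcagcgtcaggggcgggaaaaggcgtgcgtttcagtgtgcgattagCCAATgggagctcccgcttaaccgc
RRM2: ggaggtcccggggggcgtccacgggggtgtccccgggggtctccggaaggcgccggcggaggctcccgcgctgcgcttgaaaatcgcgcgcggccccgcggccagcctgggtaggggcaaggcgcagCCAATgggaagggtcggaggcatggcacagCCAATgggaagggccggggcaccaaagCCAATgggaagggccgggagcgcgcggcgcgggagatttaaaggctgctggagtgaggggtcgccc
The E2F letters searched were TTGGCGC and TTCGCGC and the CCAAT-box letters were CCAAT, each on both strands, in 300 bases that include 50 after the start. Matches could overlap, as in ORC1, where CCAAT on the other strand shares bases with the E2F letters. Promoters matched 46 members, and MCM4, MCM5, GINS4, POLD3, RPA2 and RPA3 were not matched. The E2F letters stood in 19 of the 46 (41.3%), against 5.18% of 27305 promoters in the RefSeq table, and CCAAT in 28 (60.9%), against 35.7%. By role, the E2F letters stood in 5 of 7 licensing promoters, 4 of 8 polymerase promoters and 0 of 4 nucleotide enzyme promoters. They stood in 1 of 6 promoters for origin recognition, 1 of 5 for helicase activation and 2 of 6 for clamp and loader. For maturation and single-strand binding they stood in 2 of 3, for chromatin and fork genes in 3 of 6, and in that of UNG. They stood in 12 of 24 members whose release maximum was at 300 minutes and in 5 of 15 with a maximum at 80 minutes. The letters TTTGAA, the core of an element known from mitotic gene promoters, stood in 1 of 46 (2.17%), against 15.4% of the table. A match describes letters only and names no bound factor.

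At 0 minutes, in cells arrested in mitosis, nascent RNA of the members was low against asynchronous cells. Fold differences are of FPKM + 1, and 2-fold is the size at which a gene is counted. Of the 52, 36 were at least 2-fold lower at 0 minutes than in asynchronous cells and 0 were at least 2-fold higher, where 19.0% of all kept genes were 2-fold lower and 14.1% were 2-fold higher. The median member differed by -1.36 on the log2 scale and the median gene by -0.14. Every member read below its asynchronous value, but with columns scaled to equal sums of FPKM times gene span GMNN, MCM7, GINS3, GINS4, POLD1 and RPA3 read above it, as did GMNN, GINS3 and RPA3 in 1 other scaling each. Relative to the median gene, which no constant scaling alters, 51 of 52 members were lower. The count of 36 was 17 with columns scaled to equal sums of FPKM times gene span and 19 after quantile normalization. Of kept genes, 5.92% and 11.9% were 2-fold lower in those scalings. In every scaling run 17 genes were counted, among them PCNA, TYMS, RRM2, UNG, MCM5, MCM6, CDC6 and CDT1.

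**Figure D1:**
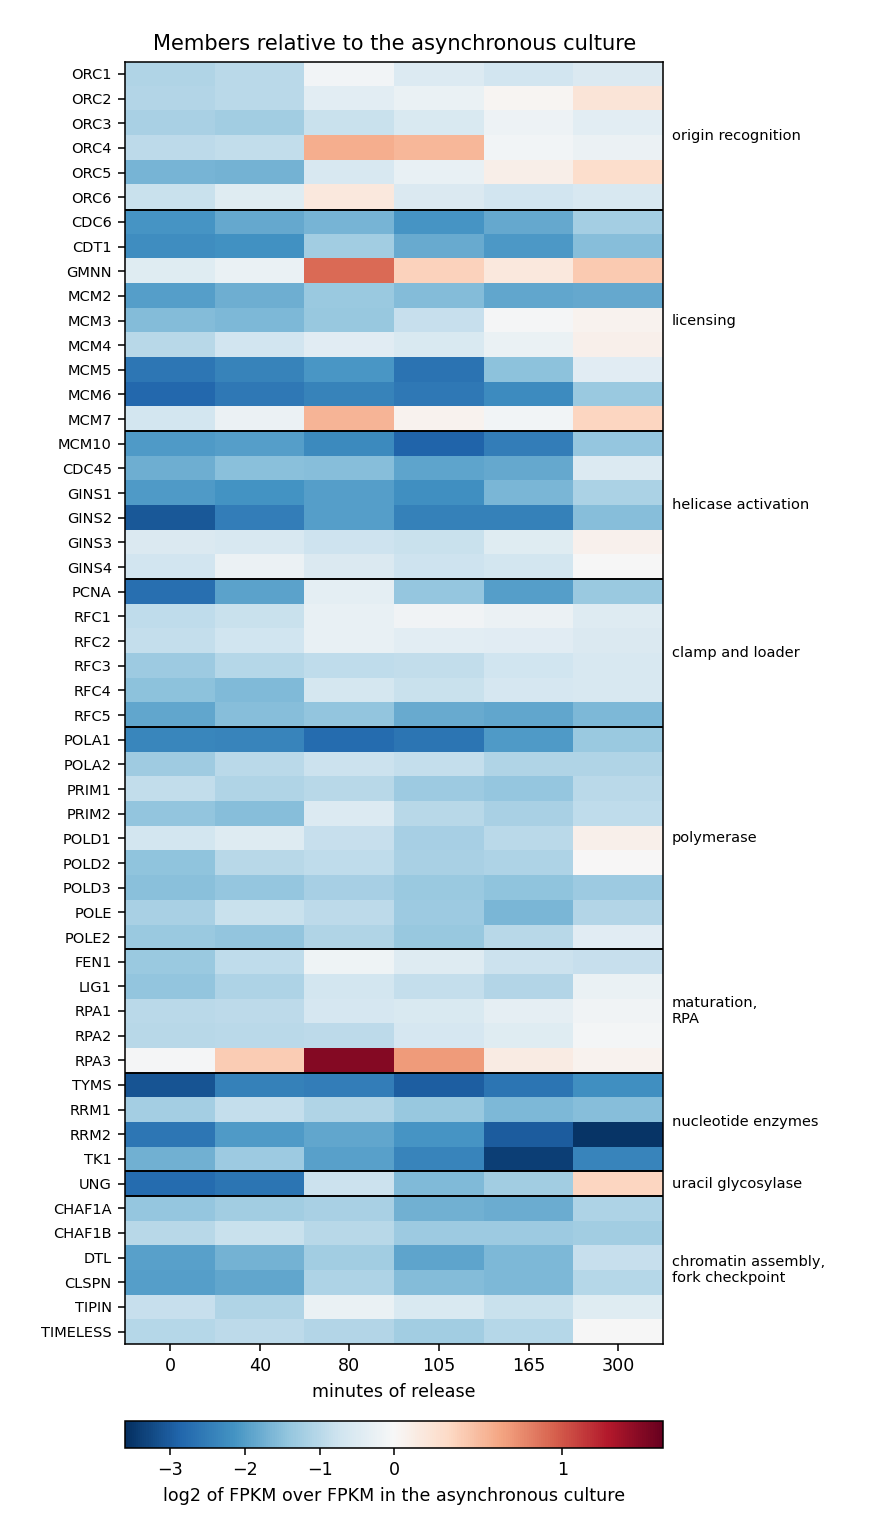
Each row is 1 member, grouped by role, and each column 1 release time in minutes. Colour gives the log2 of FPKM over FPKM in asynchronous cells, with blue below and red above it. At 0 minutes the median member stood at 38.9% of its asynchronous value, and at 300 minutes at 67.4%.

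The percentages of the asynchronous value over time trace the members as a set. Their median was 38.9% at 0 minutes, 43.9% at 40, 52.5% at 80, 42.9% at 105, 46.5% at 165 and 67.4% at 300 minutes. The median over genes with at least 1 FPKM in asynchronous cells was 87.2% at 0, 98.3% at 40, 123% at 80, 117% at 105 and 109% at 165 minutes, and 108% at 300 minutes. The members lay well below the typical gene at every time. At 300 minutes 20 of 52 members were still under 50%, against 9.64% of those genes, and 11 of 52 were at or above 100%, against 58.3%.

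At 40 minutes no member was 2-fold higher or lower than at 0 minutes, where 3.24% of kept genes were 2-fold higher and 2.05% were 2-fold lower. The medians were 0.18 for members and 0.10 for all genes on the log2 scale, with 34 members above the median gene. All 4 nucleotide enzymes were above it, with log2 differences of 0.37 to 0.65. PCNA had the largest fold among members, with 314 FPKM at 40 minutes, against 180.4 at 0 minutes (1.74-fold higher).

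At 80 minutes 9 members were at least 2-fold higher than at 0 minutes and 0 were 2-fold lower. Among kept genes 20.1% were 2-fold higher and 2.65% lower, so a count of 9 of 52 lies near the background. The members' median was 0.51 and the median of all genes 0.31 on the log2 scale, and 34 of 52 members were above the median gene. This order depended on the processing. After quantile normalization the medians were -0.16 for members and -0.07 for all genes. With a stricter filter of at least 10 FPKM in 3 columns they were 0.51 and 0.50. With columns scaled to equal medians they were 0.12 and -0.06, and with equal sums of FPKM times gene span -0.006 and -0.18. The 9 were PCNA, UNG, ORC4, RPA3, GMNN, MCM7, FEN1, ORC5 and GINS2. The count was 4 after quantile normalization, 4 with equal medians and 2 with equal sums of FPKM times gene span. Of kept genes, 7.11%, 9.26% and 7.34% were 2-fold higher in those scalings. PCNA and UNG were counted in each.

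At 300 minutes 15 members were at least 2-fold higher than at 0 minutes and 0 were 2-fold lower, where 18.9% of kept genes were 2-fold higher and 8.82% lower. The median was 0.76 for members and 0.21 for all genes, and 42 of 52 members were above the median gene. The 15 were UNG, MCM5, ORC5, MCM3, MCM6, GINS2, POLD2, PCNA, ORC2, CDC45, LIG1, DTL, MCM4, POLA1 and TIMELESS. Their number was 6 after quantile normalization, 7 with equal medians and 3 with equal sums of FPKM times gene span. Of kept genes, 9.84%, 9.53% and 6.02% were 2-fold higher there, so these counts lie near the background. UNG, MCM5 and ORC5 were counted in each. RRM2 and TK1 were 2-fold lower in those 3 scalings, where 10.0%, 17.9% and 26.6% of kept genes were. The comparisons with 0 minutes share the 0-minute column, and those with asynchronous cells share its column, so they are not independent of each other.

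Members differed in when they were highest. Among the 6 release times, 28 of 52 were highest at 300 minutes, where 21.1% of kept genes had their maximum, and 17 were highest at 80 minutes, where 23.1% did. The remaining maxima were at 0 minutes for PRIM1, at 40 for POLE, RRM1, TK1 and CHAF1B, at 105 for RFC1 and at 165 for ORC3. After quantile normalization 6 members were highest at 0 minutes and 11 at 40, with equal medians 1 and 11, and with equal sums of FPKM times gene span 5 and 8. The members with a maximum at 300 minutes numbered 22 to 24 in the other scalings. Those with a maximum at 80 minutes numbered 9 after quantile normalization and 13 and 15 in the others. The shares of kept genes with these maxima in the other scalings were not computed, so the shifts cannot be set against all genes. Of the 20 members that ever reached 2-fold over 0 minutes at one of the times 80, 165 and 300 minutes, 9 first did so at 80, 3 at 165 (ORC2, MCM3 and MCM5) and 8 at 300. At 105 minutes 4 members were 2-fold above 0 minutes and 0 below, where 20.3% and 3.99% of kept genes were. At 165 minutes 5 were above and TK1 alone below, where 19.1% and 7.11% of kept genes were.

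The origin recognition genes encode the 6 subunits of the complex that marks origins. ORC6, the subunit least tightly held by the complex, had the highest FPKM of the 6 in every column, with 528 FPKM at 0 minutes, 682 at 40, 1024 at 80, 644 at 105, 566 at 165 and 617 at 300 minutes, with 914 in asynchronous cells. ORC4 had 68.7 FPKM at 0 minutes, 70.3 at 40, 196 at 80, 189 at 105, 123 at 165 and 113 at 300 minutes, with 131 in asynchronous cells, a peak at 80 and 105 minutes and 2.83-fold more at 80 than at 0 minutes. ORC5 read higher at each time after 40 minutes than at the one before, with 57.0 FPKM at 0 minutes, 55.6 at 40, 121 at 80, 151 at 105, 193 at 165 and 220.2 at 300 minutes, with 181 in asynchronous cells. After 105 minutes ORC4 read lower and ORC5 higher at each later time. ORC2 was also highest at 300 minutes, with 186 FPKM at 0 minutes, 197 at 40, 299 at 80, 329 at 105, 394 at 165 and 443 at 300 minutes, with 385 in asynchronous cells. ORC1, the regulated ATPase subunit, was highest at 80 minutes, with 94.0 FPKM at 0 minutes, 101 at 40, 188 at 80, 141 at 105, 124 at 165 and 139 at 300 minutes, with 199.9 in asynchronous cells. ORC1, ORC4 and ORC6 were thus highest at 80 minutes, ORC2 and ORC5 at 300 minutes and ORC3 at 165. All 6 times held in every scaling run. ORC3, whose product is part of the core ring, had 215 FPKM at 300 minutes, against 126 at 0 minutes. At 300 minutes no origin recognition gene was 2-fold from its asynchronous value; ORC5 stood at 122% and ORC2 at 115%. Annotated coding genes overlap ORC1 (PRPF38A), ORC3 (AKIRIN2) and ORC4 (ACVR2A and MBD5). ACVR2A had 210.2 FPKM at 80 minutes, against 74.1 at 0 minutes, and PRPF38A 642 against 264. The libraries were stranded, but no source used here says whether counting used strand, so these genes and the others named below with an overlapping gene are uncertain. In all, 28 of the 52 members overlap another annotated gene and 10 a coding one.

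**Figure D2:**
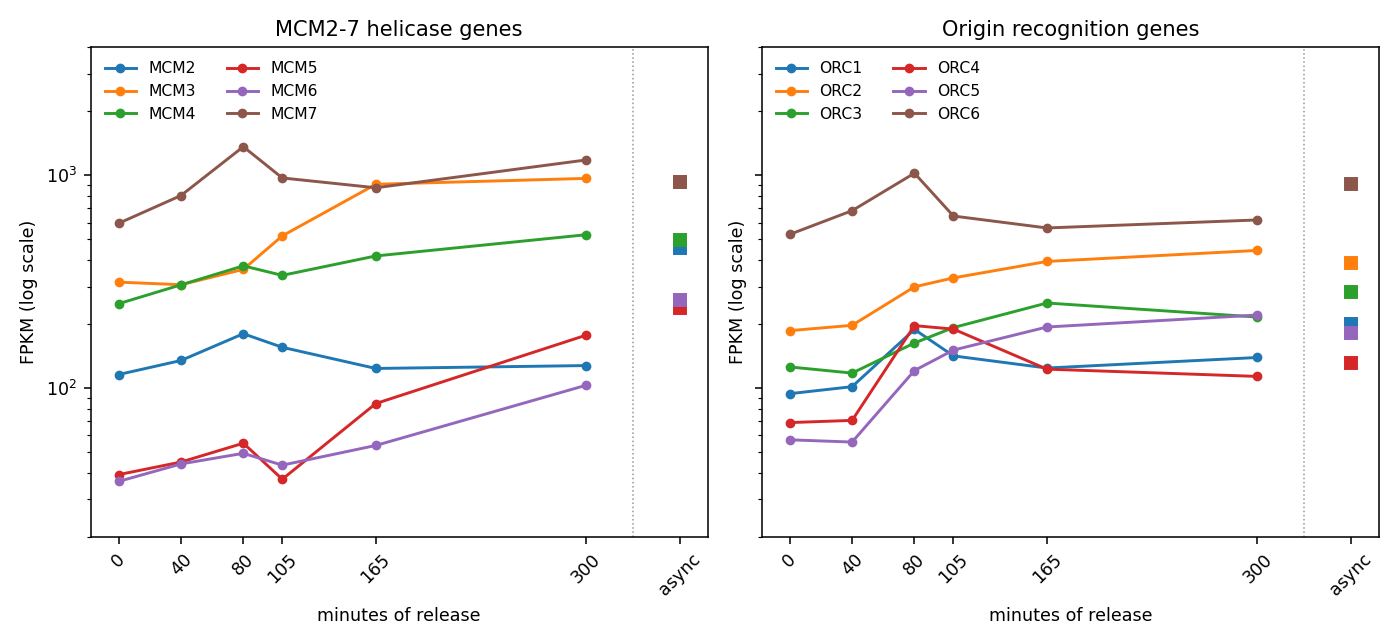
FPKM on a log scale of the 6 MCM genes (left) and the 6 origin recognition genes (right) over release time in minutes, with squares for asynchronous cells. MCM7 and MCM6 were 27.7-fold apart at 80 minutes, while the MCM genes lay within 3.94-fold in asynchronous cells.

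The licensing genes split by subunit. MCM7 and MCM6, parts of one ring in equal numbers, were far apart. MCM7 had 595 FPKM at 0 minutes, 804 at 40, 1364 at 80, 972 at 105, 874 at 165 and 1182 at 300 minutes, with 932 in asynchronous cells. MCM6 had 36.3 FPKM at 0 minutes, 43.9 at 40, 49.2 at 80, 43.3 at 105, 53.6 at 165 and 103 at 300 minutes, with 259 in asynchronous cells. The ratio of the highest to the lowest of the 6 MCM genes was 16.4 at 0 minutes, 18.3 at 40, 27.7 at 80, 26.1 at 105, 16.9 at 165 and 11.5 at 300 minutes, and 3.94 in asynchronous cells, and such a ratio does not depend on the scaling by a constant. MCM5, next to MCM2 in the ring, had 39.1 FPKM at 0 minutes, 44.8 at 40, 54.9 at 80, 37.2 at 105, 84.5 at 165 and 177 at 300 minutes, with 237 in asynchronous cells. Most of its difference came after 105 minutes, and at 300 minutes it was 4.44-fold above 0 minutes. MCM3 had 315 FPKM at 0 minutes, 306 at 40, 361 at 80, 519 at 105, 908 at 165 and 968 at 300 minutes, with 929.9 in asynchronous cells, and reached 2-fold over 0 minutes by 165 minutes. MCM2, by contrast, had 116 FPKM at 0 minutes, 135 at 40, 179.9 at 80, 155 at 105, 123 at 165 and 127 at 300 minutes, with 456 in asynchronous cells. It was 28.0% of its asynchronous value at 300 minutes while MCM3 was 104%, MCM4 106% and MCM5 74.9%. MCM4 was 2.11-fold higher at 300 than at 0 minutes. AP4M1, which overlaps MCM7 in the annotation, had 399.6 FPKM at 80 minutes, against 159.7 at 0 minutes, and the share of its reads in MCM7 was not tested.

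The loading factors CDT1 and CDC6 and the inhibitor GMNN had the following values. GMNN, which binds CDT1 and blocks reloading, had 617 FPKM at 0 minutes, 705 at 40, 1575 at 80, 1084 at 105, 942 at 165 and 1117 at 300 minutes, with 839 in asynchronous cells. It was highest at 80 minutes and 133% of the asynchronous value at 300 minutes. CDT1, its target, had 57.2 FPKM at 0 minutes, 60.0 at 40, 113 at 80, 76.9 at 105, 63.7 at 165 and 93.9 at 300 minutes, with 269.6 in asynchronous cells. GMNN and CDT1 were both lowest at 0 minutes as deposited and highest at 80 minutes, a maximum found in every scaling run. CDC6, the ATPase that joins ORC to load MCM, had 143 FPKM at 0 minutes, 171 at 40, 195 at 80, 143 at 105, 173 at 165 and 262 at 300 minutes, with 616 in asynchronous cells, with its highest release value at 300 minutes. CDT1 and CDC6 stood at 34.8% and 42.5% of the asynchronous value at 300 minutes, 2-fold lower in each.

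Genes that turn the loaded ring into a helicase had their highest values late. All 6 were highest at 300 minutes among the release times, and in the other scalings 4 to 5 of them were. The lowest value was at 105 minutes in 5 of the 6 (4 to 5 in the other scalings). Of all 52 members, 10 were lowest at 105 minutes as deposited, and 16 to 20 in the other scalings. The share of kept genes lowest at 105 minutes was not computed. CDC45, the helicase cofactor, had 119 FPKM at 0 minutes, 141 at 40, 136 at 80, 106 at 105, 109.9 at 165 and 282 at 300 minutes, with 398 in asynchronous cells. MCM10, a factor that starts the helicase, had 74.1 FPKM at 0 minutes, 76.4 at 40, 62.2 at 80, 41.2 at 105, 54.3 at 165 and 116 at 300 minutes, with 303 in asynchronous cells. Both read lowest at 105 minutes and highest at 300. GINS2 had 18.1 FPKM at 0 minutes, 26.8 at 40, 38.3 at 80, 27.9 at 105, 28.1 at 165 and 52.3 at 300 minutes, with 151 in asynchronous cells, the lowest values of the GINS genes at each release time, 7.92-fold lower at 0 minutes than in asynchronous cells. The ratio of highest to lowest GINS gene was 9.83 at 0 minutes and 2.57 in asynchronous cells. GINS1 had 173 FPKM at 300 minutes, against 379.6 in asynchronous cells. GINS3 had 155 FPKM at 300 minutes, against 148 in asynchronous cells, and GINS4 285 FPKM at 300 minutes, against 286 in asynchronous cells. GINS1 and GINS2 were thus short of their asynchronous values at 300 minutes, where GINS3 and GINS4 stood at 105% and 99.6%. GSE1 overlaps GINS2 in the annotation and had 318.9 FPKM at 0 minutes, against 535 in asynchronous cells.

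PCNA, the sliding clamp, had a peak at 80 minutes. It had 180.4 FPKM at 0 minutes, 314 at 40, 925 at 80, 450.0 at 105, 297 at 165 and 466 at 300 minutes, with 1184 in asynchronous cells. At 80 minutes it was 5.10-fold above 0 minutes, and at 165 minutes it was 3.11-fold below 80 minutes. Its 2 annotated transcripts shared the peak, with 636 and 1214 FPKM at 80 minutes, against 132 and 229 at 0 minutes, and PCNA-AS1 overlaps the gene. The loader genes RFC1 to RFC5 lay within 1.59-fold of each other at 0 minutes and 2.83-fold in asynchronous cells. RFC3, the highest of them at 0 minutes, is a mean of unlike transcript values of 202 and 77.6 FPKM there. RFC5 had 123 FPKM at 0 minutes, 155 at 40, 167 at 80, 128 at 105, 124 at 165 and 148 at 300 minutes, with 451 in asynchronous cells, and was at 32.8% of its asynchronous value at 300 minutes while the other 4 stood between 67.2% and 73.0%. RFC4 had 220.5 FPKM at 80 minutes, against 124 at 0 minutes, and RFC1, the large subunit, had 206 FPKM at 105 minutes, against 119 at 0 minutes. WSB2 overlaps RFC5 in the annotation.

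**Figure D3:**
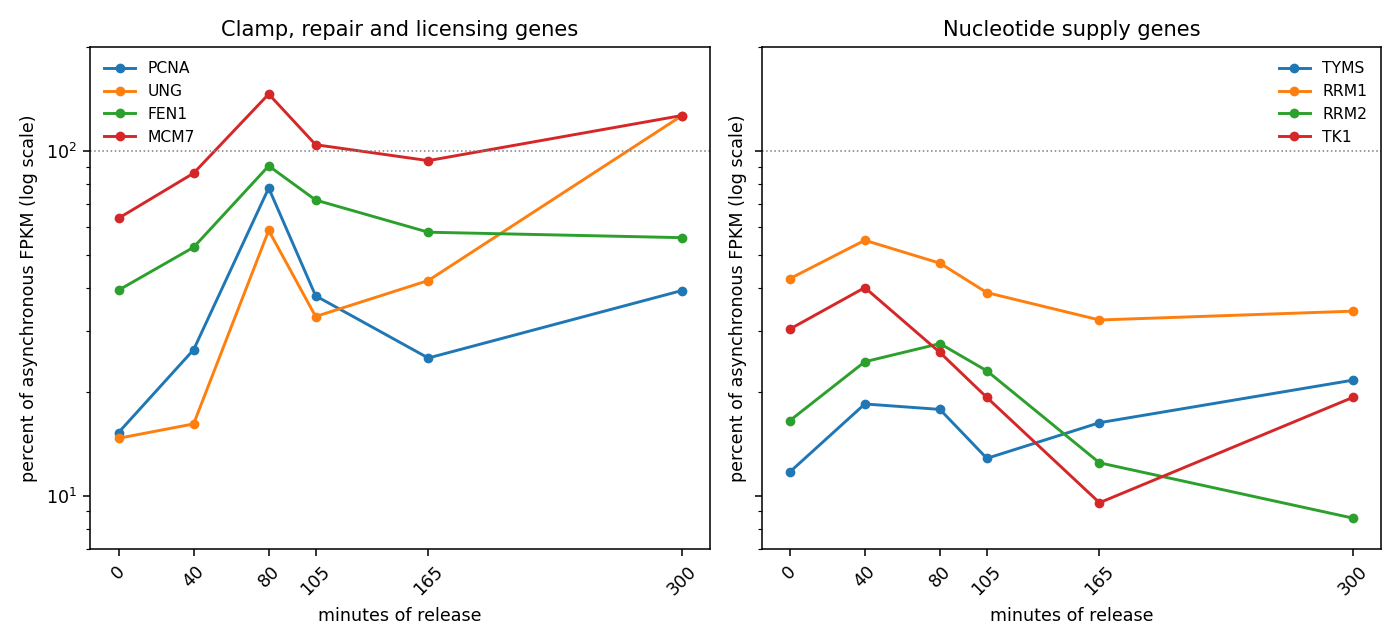
Percent of the asynchronous FPKM (log scale) over release time in minutes for PCNA, UNG, FEN1 and MCM7 (left) and the 4 nucleotide enzymes (right); the dotted line is 100%. PCNA stood at 78.1% at 80 minutes and 25.1% at 165 minutes, and RRM2 ended at 8.60%.

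UNG removes uracil from DNA. It had 62.4 FPKM at 0 minutes, 68.7 at 40, 251 at 80, 141 at 105, 179 at 165 and 539 at 300 minutes, with 426 in asynchronous cells. It was 3.97-fold above 0 minutes at 80 minutes and 8.51-fold at 300 minutes, the widest difference of any member between 300 and 0 minutes, and its value at 300 minutes was 127% of the asynchronous one.

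The nucleotide enzymes took another course. RRM2, the regulated small subunit of ribonucleotide reductase, had 231 FPKM at 0 minutes, 343 at 40, 387 at 80, 323 at 105, 174 at 165 and 121 at 300 minutes, with 1402 in asynchronous cells. Its release maximum was at 80 minutes as deposited and at 40 minutes in the 3 other scalings, where all 4 nucleotide enzymes were highest at 40. It was at 8.60% of the asynchronous value at 300 minutes, the lowest of the 52. TK1, which salvages thymidine, had 109 FPKM at 0 minutes, 144 at 40, 93.7 at 80, 69.3 at 105, 34.3 at 165 and 69.4 at 300 minutes, with 360.0 in asynchronous cells, with a trough at 165 minutes. RRM1, the large reductase subunit, had 83.0 FPKM at 0 minutes, 107 at 40, 92.0 at 80, 75.6 at 105, 63.0 at 165 and 66.8 at 300 minutes, with 195 in asynchronous cells. TYMS, which makes thymidylate, had 51.5 FPKM at 0 minutes, 81.2 at 40, 78.3 at 80, 56.5 at 105, 71.7 at 165 and 95.3 at 300 minutes, with 441 in asynchronous cells. RRM1, RRM2 and TK1 were lower at 300 than at 0 minutes in every scaling, TYMS was higher, and all 4 were at least 2-fold below asynchronous cells at 300 minutes in each, with TK1 at 19.3%, TYMS at 21.6% and RRM1 at 34.3%. At 0 minutes they were already 8.40-fold (TYMS), 6.04-fold (RRM2), 3.27-fold (TK1) and 2.33-fold (RRM1) lower than in asynchronous cells. ENOSF1, which overlaps TYMS, had 185 FPKM at 0 minutes and 502 at 300 minutes, against 500.5 in asynchronous cells. The share of its reads in TYMS was not tested.

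**Figure D4:**
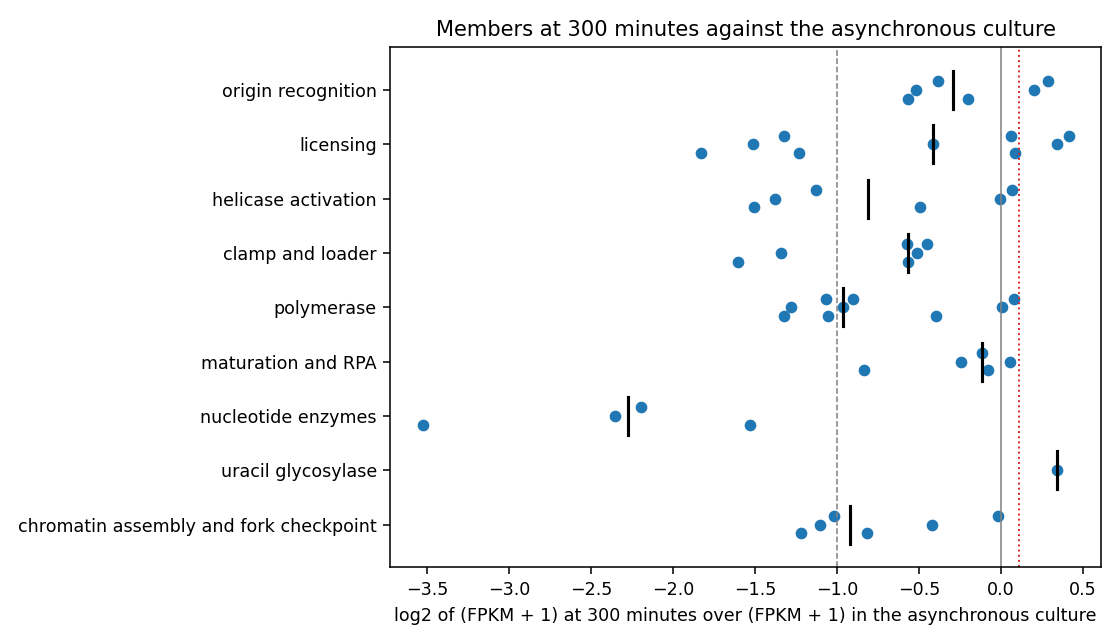
Each point is 1 member's log2 ratio of FPKM + 1 at 300 minutes over asynchronous cells, by role; black bars are medians, the dashed line marks 2-fold lower and the red dotted line the median over all genes (0.11). The nucleotide enzymes lie leftmost with a median of -2.28, and origin recognition has a median of -0.30.

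At 300 minutes 20 of the 52 were at least 2-fold below asynchronous cells and 0 were 2-fold above, where 8.57% of kept genes were lower and 9.84% higher. The count was 20 after quantile normalization, 20 with equal medians and 17 with equal sums of FPKM times gene span. Of kept genes, 9.02%, 8.76% and 7.45% were 2-fold lower in those scalings. By role, the count was 4 of 4 nucleotide enzymes, 4 of 9 licensing genes, 4 of 9 polymerase genes, 3 of 6 for helicase activation, 3 of 6 for chromatin and fork genes, 2 of 6 clamp and loader genes, 0 of 5 for maturation and single-strand binding and 0 of 6 origin recognition genes. Members at or above their asynchronous value were led by GMNN at 133%, MCM7 at 127% and UNG at 127%.

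Among the polymerase genes, POLA1, the alpha catalytic subunit, had 47.0 FPKM at 0 minutes, 46.6 at 40, 35.6 at 80, 38.8 at 105, 58.7 at 165 and 95.7 at 300 minutes, with 241 in asynchronous cells. It was 5.03-fold lower at 0 minutes than in asynchronous cells, the most of the group. POLD2, a delta subunit, had 92.4 FPKM at 0 minutes, 126 at 40, 134 at 80, 114 at 105, 117 at 165 and 256 at 300 minutes, with 254 in asynchronous cells, and was 2.75-fold above 0 minutes at 300. POLD1, the delta catalytic subunit, had 157 FPKM at 300 minutes, against 93.8 at 0 minutes, while POLE, the epsilon catalytic subunit, had 117 FPKM at 300 minutes, against 107 at 0 minutes, 106% and 47.9% of the asynchronous values. PRIM1, the primase catalytic subunit, had 52.02 FPKM at 300 minutes, against 55.8 at 0 minutes, and was highest at 0 minutes in every scaling run. PRIM2 transcripts disagreed: at 80 minutes they had 29.2, 201 and 155 FPKM, against 33.1, 94.3 and 72.8 at 0 minutes, and RAB23 overlaps the gene. POLE2 was highest at 300 minutes in every scaling run. POLA2 and POLD3 were highest at 80 minutes as deposited, but POLA2 at 40 in the 3 other scalings and POLD3 at 0 or 40.

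FEN1, which trims the ends of lagging strand fragments, was the most transcribed member in asynchronous cells, with 888 FPKM at 0 minutes, 1182 at 40, 2037 at 80, 1622 at 105, 1308 at 165 and 1261 at 300 minutes, with 2249.7 in asynchronous cells. LIG1, which seals them, had 129 FPKM at 300 minutes, against 57.2 at 0 minutes. RPA1 and RPA2, subunits of the single-strand binding protein, reached 92.3% and 94.4% of the asynchronous value at 300 minutes. RPA3, the smallest subunit, had 16.9 FPKM at 0 minutes, 22.9 at 40, 47.7 at 80, 27.7 at 105, 18.9 at 165 and 18.0 at 300 minutes, with 17.3 in asynchronous cells. It peaked at 80 minutes at 276% of the asynchronous value, unlike RPA1 and RPA2, which were highest at 300. UMAD1 overlaps RPA3 in the annotation and had 53.5 FPKM at 80 minutes, against 38.0 at 0 minutes.

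Among the chromatin and fork genes, DTL, part of a ubiquitin ligase that acts with PCNA, had 109.9 FPKM at 0 minutes, 131 at 40, 179 at 80, 115 at 105, 140.5 at 165 and 242 at 300 minutes, with 428 in asynchronous cells. CLSPN, the checkpoint adaptor Claspin, had 88.7 FPKM at 0 minutes, 95.7 at 40, 162 at 80, 118 at 105, 114 at 165 and 171 at 300 minutes, with 348 in asynchronous cells. TIMELESS, which steadies forks with TIPIN, had 75.8 FPKM at 0 minutes, 80.8 at 40, 74.3 at 80, 65.1 at 105, 76.5 at 165 and 154 at 300 minutes, with 155 in asynchronous cells, 98.8% of the asynchronous value at 300 minutes. TIPIN had 90.5 FPKM at 80 minutes, against 61.0 at 0 minutes. CHAF1A, a subunit of the histone chaperone CAF-1, had 130.3 FPKM at 300 minutes, against 282 in asynchronous cells. CHAF1B, its partner, had 43.0 FPKM at 300 minutes, against 102 in asynchronous cells, and both were at least 2-fold lower. UBXN6 overlaps CHAF1A.

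A pattern noticed after the profiles were seen was a low at 165 minutes. The value at 165 minutes was below those at both 80 and 300 minutes in 30 of 52 members, against 29.6% of kept genes, and at least 1.25-fold below both in 13, against 9.87%. Those 13 included PCNA, UNG, TK1, CDT1, CLSPN and POLE. The pattern does not make 165 minutes the lowest time: UNG stood at 33.1% of its asynchronous value at 105 minutes and 42.1% at 165.

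Other genes of the pathway that are not on the list, 39 in number, were also low at 0 minutes: 26 were 2-fold lower than in asynchronous cells and 1 higher (19.0% and 14.1% of kept genes), with a median of -1.26 on the log2 scale. The higher one was POLD4, a small delta subunit, with 954 FPKM at 0 minutes, against 255 in asynchronous cells. At 80 minutes 8 of the 39 were 2-fold above 0 minutes, near the 20.1% of kept genes. At 300 minutes 11 were above, where 18.9% of kept genes were, and 1, the histone chaperone gene ASF1B, was below, where 8.82% were. ASF1A, its paralogue, had 789 FPKM at 80 minutes, against 206 at 0 minutes, and 597 at 300 minutes. Of 18 upstream regulators, 12 were 2-fold lower at 0 minutes than in asynchronous cells, led by the E2F repressors E2F8 and E2F7 with 56.9 and 28.3 FPKM, against 721 and 294. E2F1, an activator, had 610.1 FPKM at 300 minutes, against 232 at 0 minutes. CCNE2, a cyclin E, had 348 FPKM at 80 minutes, against 127 at 0 minutes, but 69.6 at 300 minutes. The other cyclin E gene, CCNE1, had 62.4 FPKM at 300 minutes, against 95.3 at 0 minutes. Of 24 mitotic genes, 15 were 2-fold lower at 300 than at 0 minutes and 0 higher, with a median of -1.27, where the members' median was 0.76.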

How the data were processed

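Captured EU RNA was sequenced. Per the submitters' processing notes, hg19, TopHat, Bowtie2 2.2.9, bedtools and bcl2fastq were used, with no role stated. The authors deposited FPKM per RefSeq transcript, 1 column per group, with no word on how libraries were pooled; 0 columns were left unmapped. Transcripts were matched to symbols through a RefSeq table (47127 of 48205), and a gene's value was the mean of its distinct transcript values. The filter kept genes reaching 1 FPKM in 3 columns or more, 1 was added before log2, and genes at least 2-fold apart were counted. A planned limma test needs a column per library and was not run. The 52 members and other lists were chosen with earlier results of these data known. All members were eligible to be named; from other lists, the 2 widest folds per direction and comparison with at least 5 FPKM. Overlaps came from the RefSeq table of GRCh38.p14, spans from GENCODE release 29 (GRCh38). Alternatives were 3 scalings, 2 pseudocounts, 2 filters and 2 gene values. The fold counts and the step search were checked on simulated data. Python 3.11.15, pandas 2.3.3, numpy 2.4.6 and matplotlib 3.10.9 were used.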

Additional observations from a re-analysis of the deposited data

How the results depend on the processing

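No error, test or leave-one-out value could be computed because the table has 1 pooled column per group. No paired analysis was possible because the columns carry no replicate letter. The scaling of the columns mattered most. With equal sums of FPKM times gene span the median gene shifted by 0.67 at 0 minutes against asynchronous cells, by -0.49 at 80 against 0 minutes and by -0.58 at 300 against 0 minutes (log2). Members at least 2-fold lower at 0 minutes than in asynchronous cells numbered 19 after quantile normalization and 17 with equal sums of FPKM times gene span. Of kept genes 11.9% and 5.92% were. The scaling to equal sums was added after the data were seen. Members 2-fold higher at 80 than at 0 minutes numbered 4 after quantile normalization, 4 with equal medians and 2 with equal span sums. Of kept genes 7.11%, 9.26% and 7.34% were. At 300 against 0 minutes the higher ones numbered 6, 7 and 3 in the same order, and the lower ones 2 in each. Of kept genes 9.84%, 9.53% and 6.02% were higher and 10.0%, 17.9% and 26.6% lower. Members with a release maximum at 80 minutes numbered 9 after quantile normalization, where the share of kept genes was not computed. The cause was not tested beyond the scaling itself. The other 99 counts under these scalings, filters, pseudocounts and gene values stayed within 1.5 times of those given. Of the values of single genes, 2230 kept their side of 2-fold, 101 no longer reached it and 9 newly did, and 0 past 2-fold changed sign. Smaller differences did: the sign differed in at least 1 scaling for 6 members at 0 minutes against asynchronous cells, 16 at 40, 27 at 80 and 16 at 300 against 0 minutes, and 5 at 300 minutes against asynchronous cells.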
